A study of Mus musculus with 12 samples.

Results

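Mitochondrial ribosomal proteins are the proteins that, with RNA made inside the organelle, build the ribosome of mitochondria. They were taken here as every gene of the deposited count table whose mouse symbol is Mrpl or Mrps followed by a number. This rule found 78 of 27179 genes, 49 named Mrpl and 29 named Mrps, and the table held 0 pseudogenes that had to be excluded. By their known place in the ribosome, 51 encode proteins of the large subunit, among them Mrps18a and Mrps30 in spite of their names, and 26 encode proteins of the small subunit. The remaining member, Mrps36, is named for the small subunit but is known as a subunit of the oxoglutarate dehydrogenase complex of the citric acid cycle.

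The mitochondrial ribosome translates the few messages that the mitochondrial genome encodes, all of them subunits of the respiratory chain and the ATP synthase. Its ribosomal RNAs come from the mitochondrial genome, while every one of its proteins is encoded in the nucleus, made in the cytosol and imported. The small subunit reads the message and the large subunit joins the amino acids, next to the inner membrane into which the products are inserted. Heart muscle depends on oxidative phosphorylation for contraction, and inherited defects of several of these proteins cause cardiomyopathy.

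The study measured RNA of frozen mouse heart tissue in 4 groups of 3, and which parts of the heart it held is not given. Mice had been exposed before birth, from embryonic days E0.5 to E17.5, to filtered air or to diesel exhaust, and were raised in filtered air. At 12 weeks of age they had transverse aortic constriction (TAC), in which the aorta is narrowed against a 27 gauge needle so that the left ventricle pumps against a raised pressure, or a sham operation, and hearts were taken at 15 weeks. The groups are thus filtered air with sham, filtered air with TAC, diesel exhaust with sham and diesel exhaust with TAC. The sources used here do not give strain, sex, litter or the run of a library. Nothing says which hearts came from separate litters, so that p-values measure the spread between these samples.

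Libraries held 5534685 to 13265816 counts, and levels are given in CPM, counts relative to library size after scaling by TMM, a normalisation across all genes. A count of 3 corresponded to 0.218 to 0.501 CPM and was taken as the floor of a library, for counting error only. The heart label held: the 10 cardiomyocyte markers summed to 79280 to 145000 CPM, while the atrial markers summed to 53.2 to 108.5 CPM in sham hearts. RNA of the mitochondrial genome made up 18.3% to 32.4% of all counts, lowest in replicate 2 of diesel exhaust with sham. Replicates carry numbers in the order of deposit, which pair nothing.

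Before any comparison, 1 library in each group stood apart from the other 2 by the sign of a component score, in each case replicate 1. The first component of all 13626 genes tested, after each group's mean had been taken out, held 27.3% of the remaining variance. Its score was above 0 in these 4 libraries and below 0 in the other 8. It was 0.50 in filtered air with sham, 0.43 in filtered air with TAC, 0.39 in diesel exhaust with sham and 0.20 in diesel exhaust with TAC. The other 8 ran from -0.34 to -0.05. Both of these ends were in diesel exhaust with sham, replicates 2 and 3, so the other 2 libraries of that group also differed from each other. With the group means out, the scores of a group sum to 0, so every group had to hold libraries on both sides of 0. Each of these 4 was also the deepest library of its group. They held 10403385 counts in filtered air with sham, 8579794 in filtered air with TAC, 8236531 in diesel exhaust with sham and 13265816 in diesel exhaust with TAC. The next deepest of those groups held 7009097, 8263299, 7328704 and 9101476 counts. Each run held 4 samples, and whether these 4 shared a run is not given. The part of depth or run in this split was not tested. Every group holds 1 of the 4, so that each comparison has the same number of them on both sides. Results are therefore given for all 12 libraries and, where it changed a call, from a fit with a term for these 4, which was added after the data were seen. That term takes out spread that was read from these same data, which by itself can lower adjusted p-values over all genes.

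Of the 78 members, 77 had enough counts to be tested, with 341 to 11317 counts each over the 12 libraries and a median of 2582. The exception was Mrpl36, a small protein of the large subunit. Its counts in the 3 libraries of a group were 1, 0 and 0 in filtered air with sham, 4, 1 and 1 in filtered air with TAC, 0, 0 and 1 in diesel exhaust with sham, and 0, 0 and 0 in diesel exhaust with TAC. All but 1 of these libraries were below the floor of 3 counts, and no change of Mrpl36 was detectable at this depth. Exons of 24 members overlap those of another gene, and since the strand setting of the counting is not given, their counts may hold reads of that neighbour.

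Together the members summed to 2609, 2257 and 2537 CPM in filtered air with sham and to 2420, 2221 and 2245 CPM in filtered air with TAC. The sums were 2531, 2301 and 2331 CPM in diesel exhaust with sham and 2325, 2180 and 1957 CPM in diesel exhaust with TAC. The ranges of the groups overlapped, and the members made up 0.216% to 0.249% of a library. The ribosomal RNA partners were far more abundant, although ribosomal RNA had been depleted before sequencing: mt-Rnr1 of the small subunit ran from 15720 to 36310 CPM and mt-Rnr2 of the large subunit from 58490 to 146900 CPM, both lowest in replicate 2 of diesel exhaust with sham. The ratio of mt-Rnr2 to mt-Rnr1 ran from 3.53 to 6.29 between libraries.

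Levels between members were compared per kilobase of exon, as CPM per kb averaged over the 12 libraries. They ran from 2.28 to 142 CPM per kb with a median of 17.9. Most of these proteins sit in the ribosome in equal numbers. The highest were Mrpl42, a large subunit protein without a bacterial relative, at 142 CPM per kb, Mrpl33, the relative of a small bacterial protein, at 110.8, and Mrps23 of the small subunit at 79.8. Mrps21 at 76.0 and Mrpl30 at 75.8 CPM per kb followed. The lowest of those tested were Mrpl48 at 2.28, Mrps25 at 2.68 and Mrps17 at 2.83 CPM per kb. Members of both subunits were found along the whole order. The value depends on the exon length in the annotation, which was 6073 bases for Mrps25 and 4696 for Mrpl48 against 679 for Mrpl42.

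**Figure D1:**
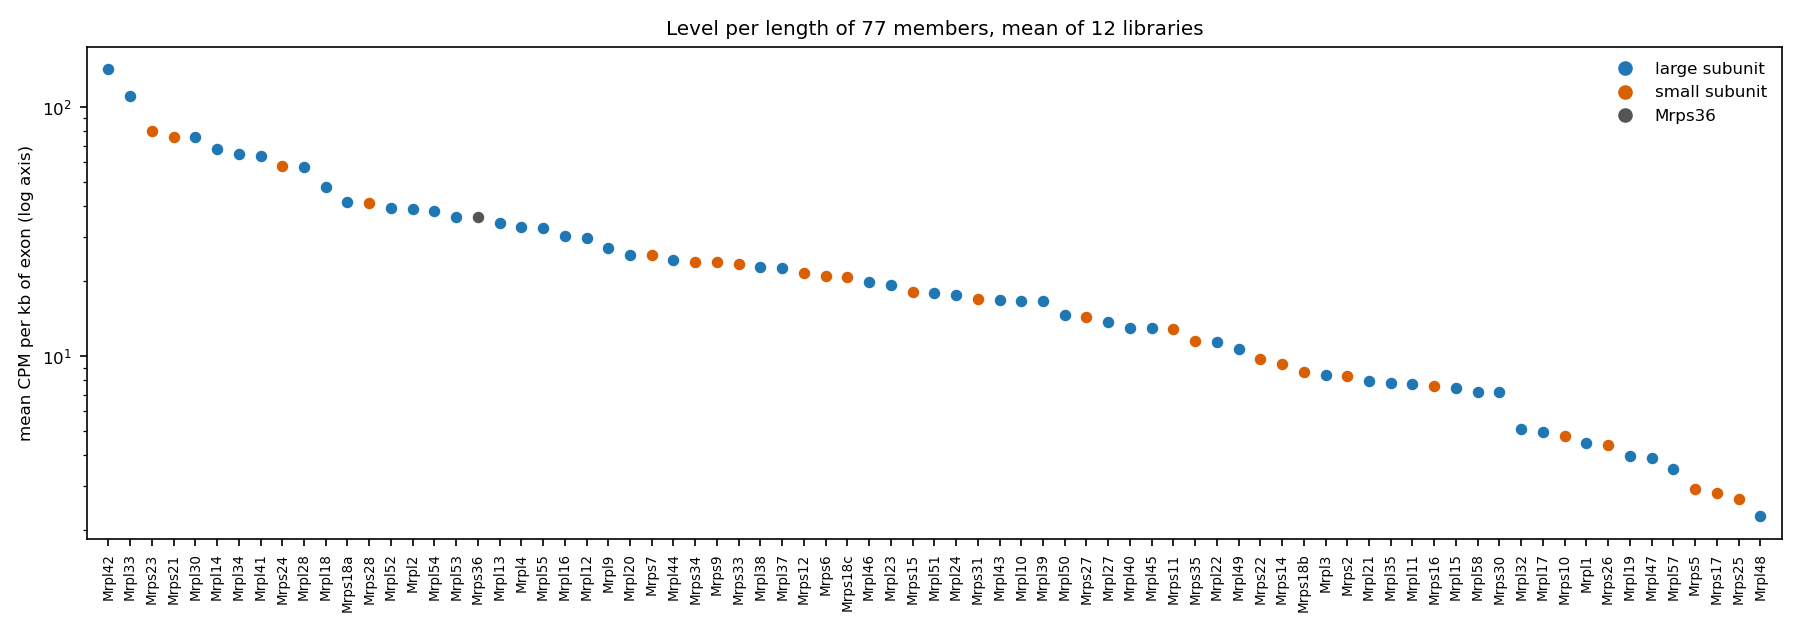
Mean level of each of the 77 tested members in CPM per kb of exon (log axis), ordered from high to low, coloured by subunit. The values run from 142 for Mrpl42 to 2.28 for Mrpl48, and both subunits are found along the whole order.

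Between the groups the members moved little. The highest of a member's 4 group means exceeded the lowest by 1.06-fold to 1.69-fold, with a median of 1.25-fold, and the SD of log2 CPM within a group ranged from 0.12 for Mrpl37 to 0.77 for Mrps24, with a median of 0.25. The widest spread, that of Mrps24, lay between the 4 libraries that stood apart and the others. Mrps24, a small subunit protein, was at 88.9, 99.2, 98.3 and 94.5 CPM in these 4 and at 31.8 to 47.4 CPM in the other 8. Mrpl41 of the large subunit was at 65.9 to 85.0 CPM in the 4 and 27.6 to 50.6 CPM in the 8, and Mrps21 at 46.4 to 57.5 against 23.1 to 40.6 CPM. In all, 6 members had all 4 of these libraries above all 8 others (Mrps24, Mrpl41, Mrps21, Mrps18c, Mrpl18 and Mrps6), and 1, Mrps23, had them below, at 84.5 to 96.0 CPM against 113.2 to 148.7 CPM. These values describe the libraries and carry no test, since the split was read from the same data. The share of all genes tested that separate these libraries likewise was not counted. The 7 are therefore not shown to be particular to the members. For none of these 7 members did a group's mean differ between TAC and sham past the threshold.

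The first comparison asked what TAC did to the members over both exposures, 6 hearts against 6. The test was edgeR's quasi-likelihood test with Benjamini-Hochberg adjustment over all 13626 genes and a threshold of 0.05. By this test 3 of 77 members fell after TAC and 0 rose, while 3.91% of all genes tested fell and 4.1% rose. A share of 3 in 77 is close to that background. The 3 were Mrps28 of the small subunit and Mrpl28 and Mrpl37 of the large subunit.

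Mrps28 (Entrez 66230, chr3:8802146-8923857 of GRCm38) encodes a small subunit protein that is a relative of a bacterial ribosomal protein. It was at 51.1, 33.6 and 34.7 CPM in filtered air with sham and at 17.9, 27.1 and 28.1 CPM in filtered air with TAC. After diesel exhaust it was at 37.5, 42.5 and 38.5 CPM with sham and at 32.4, 23.0 and 18.9 CPM with TAC. All 6 TAC hearts lay below all 6 sham hearts. By edgeR Mrps28 fell by 38.1% after TAC (log2 fold change -0.69 ± 0.16 SE, adjusted p = 0.00966, lower in 6 of 6 hearts). The difference in mean log2 CPM was -0.86 within the 4 libraries that stood apart and -0.63 within the other 8. Since the TAC and sham hearts did not overlap, both had to be below 0. The same holds for Mrpl28 and Mrpl37 below, so these differences are no separate support.

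Mrpl28 (Entrez 68611, chr17:26123503-26126613 of GRCm38) encodes the relative of a bacterial large subunit protein. Its levels were 67.7, 76.4 and 57.1 CPM in filtered air with sham and 45.3, 46.5 and 52.2 CPM in filtered air with TAC. They were 66.1, 106 and 63.5 CPM in diesel exhaust with sham and 47.1, 55.1 and 52.7 CPM in diesel exhaust with TAC. The TAC hearts lay again below every sham heart, and replicate 2 of diesel exhaust with sham was far above its group. By edgeR Mrpl28 fell by 31.4% (log2 fold change -0.54 ± 0.14 SE, adjusted p = 0.0156), with differences in mean log2 CPM of -0.53 within the 4 libraries and -0.51 within the 8.

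Mrpl37 (Entrez 56280, chr4:107055874-107066866 of GRCm38) encodes a large subunit protein found in mitochondrial but not in bacterial ribosomes. It had the narrowest spread within groups of the 77. Its levels were 41.0, 37.0 and 36.3 CPM in filtered air with sham, 30.3, 29.0 and 32.5 CPM in filtered air with TAC, 39.7, 42.5 and 36.9 CPM in diesel exhaust with sham and 24.5, 31.0 and 26.5 CPM in diesel exhaust with TAC. No TAC heart reached the lowest sham heart. By edgeR Mrpl37 fell by 25.8% (log2 fold change -0.43 ± 0.12 SE, adjusted p = 0.0315). This call was the least stable of the 3: it was lost without filtered air sham replicate 1 (adjusted p = 0.0687) or 2 (0.0521), filtered air TAC replicate 2 (0.0826), diesel exhaust sham replicate 1 (0.0583) or diesel exhaust TAC replicate 1 (0.0769) or 3 (0.0791), each by the same edgeR test. Within the 4 libraries the difference in mean log2 CPM was -0.56 and within the 8 it was -0.36.

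These 3 were also the only members of the 77 whose 6 TAC hearts and 6 sham hearts did not overlap. Among all genes tested, 2.13% were lower without overlap and 2.19% higher. At an unadjusted p under 0.05 there were 12 members lower and 1 higher, against 10.7% and 10.9% of all genes. The 1 higher was Mrpl33, whose levels were 42.6, 42.3 and 53.5 CPM in filtered air with sham and 43.9, 69.7 and 68.2 CPM with TAC, and 38.4, 50.1 and 53.8 CPM in diesel exhaust with sham and 55.1, 64.3 and 53.6 CPM with TAC. Its groups overlapped, and by edgeR its log2 fold change of 0.34 ± 0.14 SE had an adjusted p = 0.153. Without filtered air TAC replicate 1 the call was made (log2 fold change 0.43, adjusted p = 0.042 by edgeR). Of the 478 exon bases of Mrpl33, 177 overlap those of the transcript Gm43809 on the same strand. The other members with the highest log2 fold changes were Mrps10 of the small subunit at 0.34 ± 0.29 SE and Mrpl57 of the large subunit at 0.29 ± 0.20 SE, both with groups that overlapped.

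The log2 fold changes of the members leaned to one side more than their calls did. Of the 77, 61 were below 0, against 49.4% of all genes tested. Their median was -0.09 against 0.00 over all genes tested (-0.15 without filtered air TAC replicate 1). Between replicates of a group, the median log2 CPM of the members had a pooled SD of 0.076. The middle range of the members, from the first to the third quartile, was -0.23 to -0.02, against -0.22 to 0.25 over all genes. The median was -0.12 over 50 members of the large subunit and -0.06 over 26 of the small subunit. Mrps18a and Mrps18b, the additional copies of a bacterial protein, were left out of the next 4 medians. The median was -0.14 over the 29 other large subunit proteins with a bacterial relative and -0.11 over the 20 without one. Proteins of the small subunit gave -0.06 over the other 16 with a bacterial relative and -0.08 over the 9 without one.

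**Figure D2:**
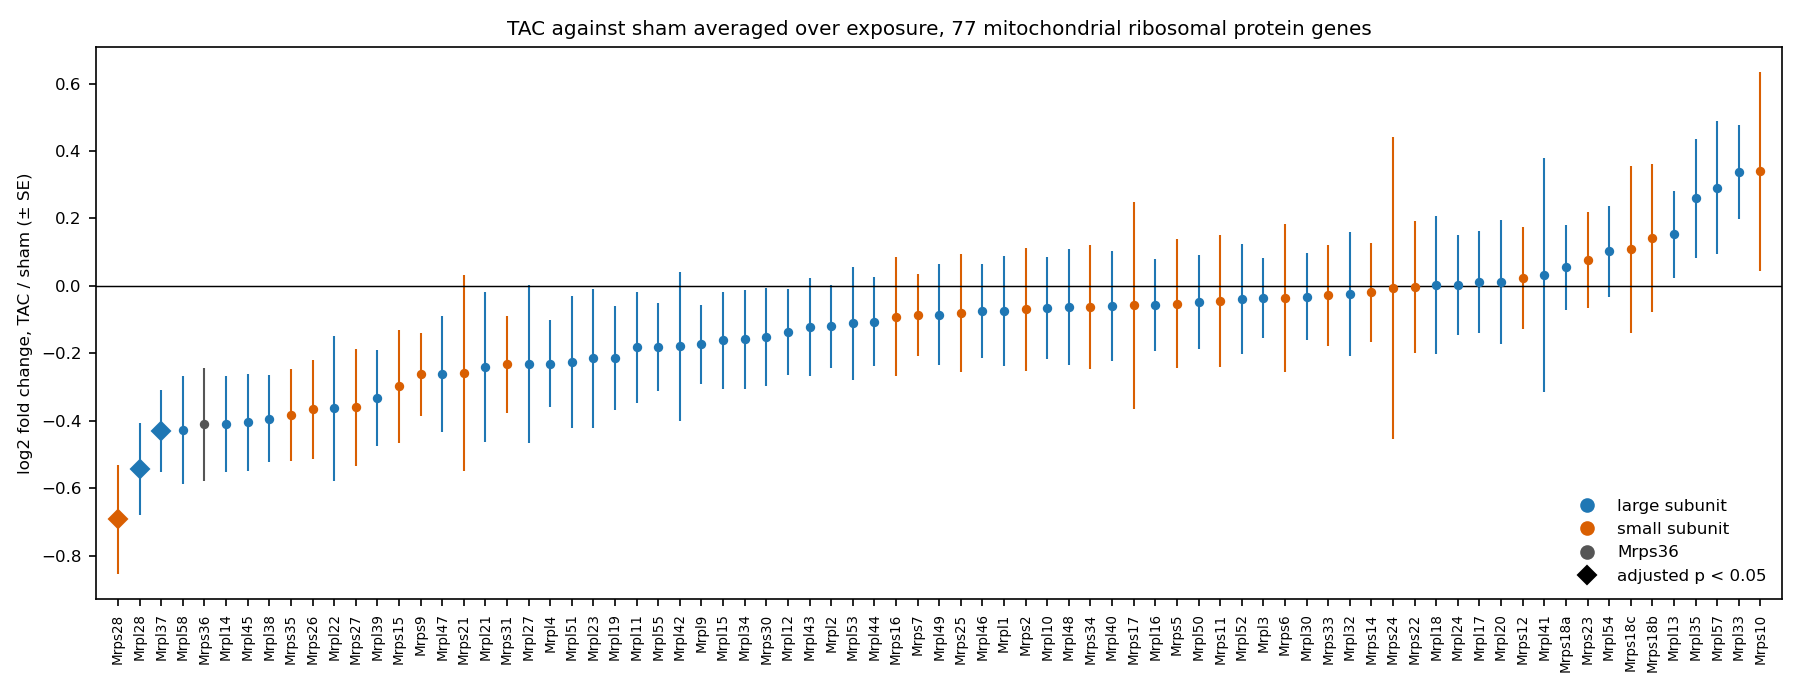
Log2 fold change of TAC against sham averaged over both exposures, with its SE, for the 77 tested members in rising order, coloured by subunit. Diamonds mark Mrps28, Mrpl28 and Mrpl37, the 3 past an adjusted p of 0.05, and 61 of the 77 points lie below 0.

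With a term for the 4 libraries that stood apart, edgeR called 7 members lower after TAC and 0 higher, where 5.74% of all genes tested were called lower. The added members were Mrpl14 (log2 fold change -0.43 ± 0.13 SE, adjusted p = 0.0275), Mrpl38 (-0.40 ± 0.12, 0.0328), Mrpl45 (-0.41 ± 0.12, 0.0284) and Mrps35 (-0.38 ± 0.11, 0.0296), all by edgeR. Mrps28, Mrpl28 and Mrpl37 stayed below the threshold in that fit, with adjusted p = 0.00329, 0.00453 and 0.0173 by edgeR. Without the term Mrpl14, Mrpl38, Mrpl45 and Mrps35 had an adjusted p of 0.0844, 0.0619, 0.0922 and 0.0916 by edgeR. Among the 8 other libraries only, 4 members were called lower by edgeR (Mrps28, Mrpl28, Mrpl14 and Mrpl39), against 3.39% of all genes tested, and the adjusted p of Mrpl37 was 0.147.

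Mrpl38, a mitochondria-specific protein of the large subunit, passed the threshold with the term and came close to it without. It was at 35.6, 37.0 and 33.8 CPM in filtered air with sham and 24.7, 29.3 and 27.1 CPM with TAC, and at 36.4, 41.1 and 35.4 CPM in diesel exhaust with sham and 25.2, 34.6 and 26.1 CPM with TAC. Only replicate 2 of diesel exhaust with TAC reached into the range of the sham hearts. Mrpl14, a relative of a bacterial protein at the face where the subunits meet, was at 50.3, 49.0 and 55.2 CPM in filtered air with sham and 40.7, 36.2 and 35.6 CPM with TAC. In diesel exhaust Mrpl14 was at 50.3, 46.6 and 48.0 CPM with sham and 52.2, 33.6 and 26.9 CPM with TAC, where replicate 1 lay above all sham hearts of its exposure. Without that library edgeR gave Mrpl14 a log2 fold change of -0.57 and an adjusted p = 0.0088.

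**Figure D3:**
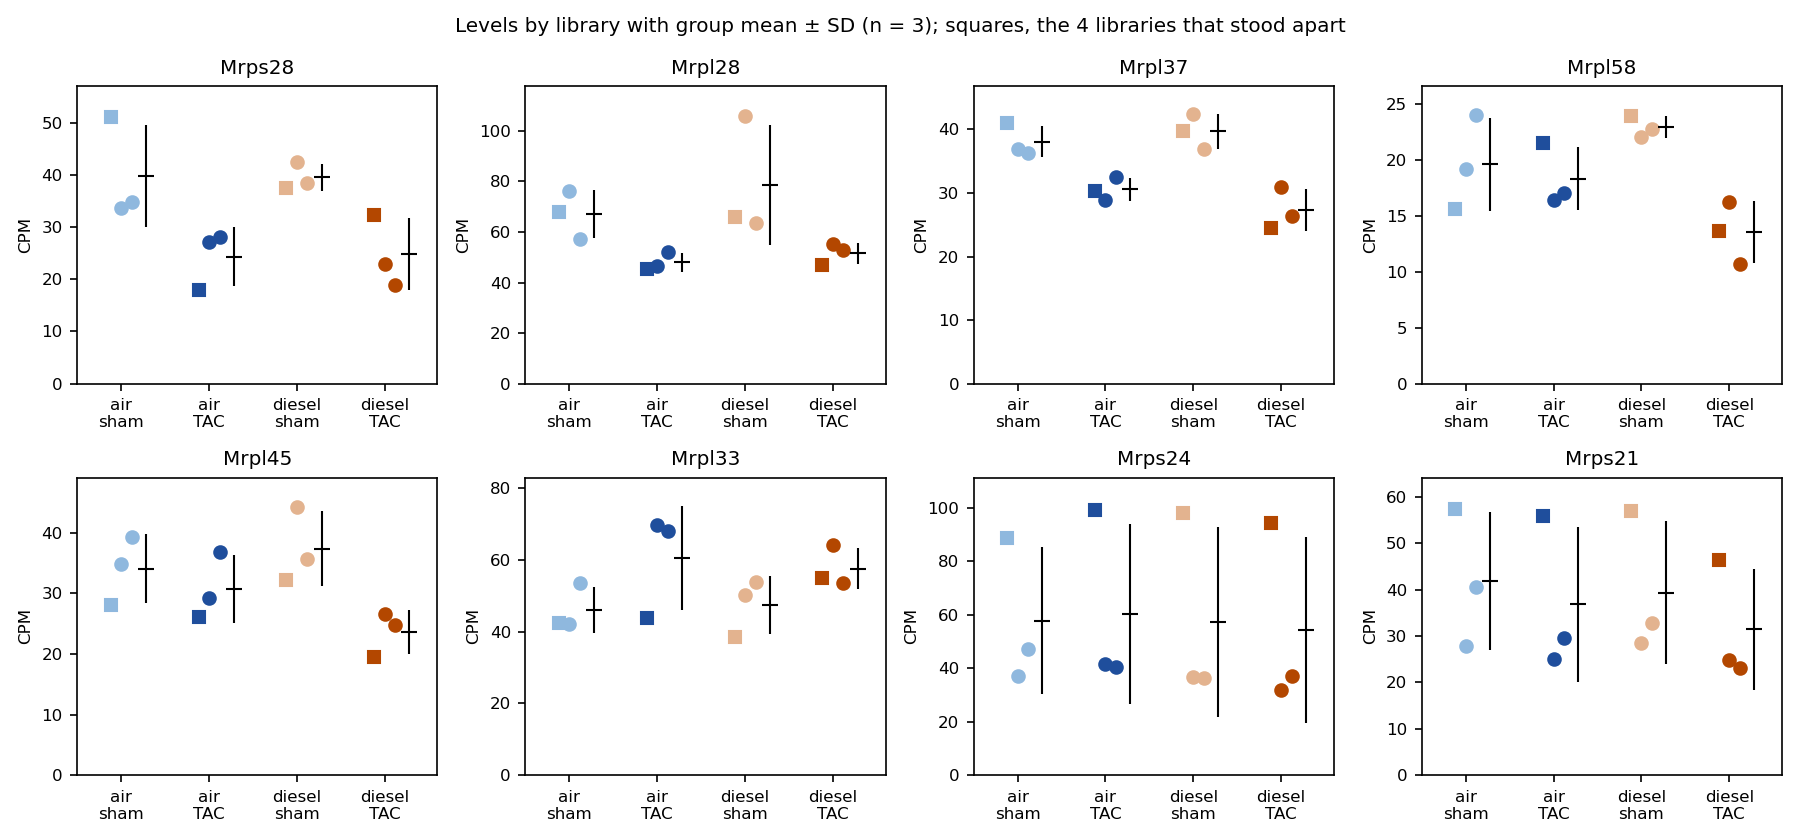
Level in CPM of 8 members in each library, by group, with the group mean ± SD (n = 3). Squares are the 4 libraries that stood apart: in the panels of Mrps24 and Mrps21 they lie above all other points, while in those of Mrps28, Mrpl28 and Mrpl37 all TAC hearts lie below all sham hearts.

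Within each exposure the comparison rested on 3 hearts against 3. In filtered air edgeR called 0 of 77 members at an adjusted p under 0.05, where 0.829% of all genes were called, and the smallest adjusted p of a member was 0.175 for Mrps28. At an unadjusted p under 0.05, 4 members were lower and 0 higher (Mrps28, Mrpl28, Mrpl14 and Mrpl38), against 11.1% of all genes in either direction. Of the 77, 52 were below 0, with a median log2 fold change of -0.09, which was -0.05 without filtered air sham replicate 3 and -0.14 without filtered air TAC replicate 1. TAC and sham hearts did not overlap for 7 members, all lower, where 7.57% of all genes were lower and 8.2% higher without overlap. Those 7 were Mrpl14, Mrpl28, Mrpl37, Mrpl38, Mrps15, Mrps22 and Mrps28. With the term for the 4 libraries the count of members called by edgeR was again 0, against 1.92% of all genes, and it was 0 in the 8 other libraries, against 0.97% of all genes.

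After diesel exhaust edgeR again called 0 of 77 members, where 3.24% of all genes were called. At an unadjusted p under 0.05, 8 were lower and 0 higher, against 15.9% of all genes in either direction, and 58 of the 77 were below 0, with a median of -0.14. TAC and sham hearts did not overlap for 12 members that were lower and 1 that was higher, Mrpl40, where 11.2% of all genes were lower and 11.1% higher without overlap. The member with the smallest adjusted p was Mrpl58, a protein of the release factor family that is built into the large subunit and can free stalled peptides. Mrpl58 was at 24.0, 22.1 and 22.8 CPM with sham and at 13.6, 16.3 and 10.7 CPM with TAC, with no overlap. By edgeR its log2 fold change was -0.76 ± 0.23 SE with an adjusted p = 0.0701. Its exons overlap those of the antisense gene Ict1os by 2 bases.

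Mrpl45, which lies at the exit tunnel and ties the ribosome to the inner membrane, was the next by p. It was at 32.2, 44.3 and 35.8 CPM with sham and 19.5, 26.7 and 24.8 CPM with TAC after diesel exhaust, without overlap, and by edgeR its log2 fold change was -0.66 ± 0.20 SE with an adjusted p = 0.082. With the term for the 4 libraries edgeR called 3 members lower after diesel exhaust, Mrpl58 (adjusted p = 0.0388), Mrpl45 (0.0196) and Mrpl28 (0.0424), where 5.72% of all genes were called. The 8 other libraries gave 1 call by edgeR, Mrps28 (log2 fold change -0.94, adjusted p = 0.0132), where 2.68% of all genes were called. DESeq2 on all libraries gave 1, Mrpl58 (adjusted p = 0.041), where 4.98% of all genes were called. A single call among 77 members is a smaller share than either background.

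Whether TAC acted differently after the 2 exposures was tested by the interaction, the log2 fold change of TAC after diesel exhaust minus that in filtered air. By edgeR 0 of 77 members and 0% of all genes passed the threshold, and at an unadjusted p under 0.05 there was 1 member lower and 0 higher, against 2.4% of all genes. That member was Mrpl58, with an interaction of -0.67 ± 0.32 SE (adjusted p = 1 by edgeR). In filtered air Mrpl58 was at 15.7, 19.2 and 24.0 CPM with sham and at 21.6, 16.4 and 17.1 CPM with TAC, and these groups overlapped. The next lowest interactions were those of Mrps11 at -0.57 ± 0.39 SE and Mrpl45 at -0.51 ± 0.29 SE.

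At the other end stood Mrps22, Mrpl40 and Mrps18b, with interactions of 0.65 ± 0.39, 0.59 ± 0.33 and 0.52 ± 0.44 SE. Mrps22 was at 11.2, 13.5 and 12.8 CPM in filtered air with sham and 8.22, 11.0 and 10.6 CPM with TAC. After diesel exhaust Mrps22 was at 12.4, 7.35 and 12.4 CPM with sham and 16.9, 9.37 and 13.8 CPM with TAC. The filtered air groups were apart and the diesel exhaust groups overlapped, and none of these interactions passed the threshold. The median interaction was -0.12 over the large subunit, with 37 of 50 below 0, and 0.05 over the small subunit, with 12 of 26 below 0. The median SE of a member's interaction was 0.31. Without diesel exhaust sham replicate 1 the median over all members moved from -0.07 to 0.00.

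Diesel exhaust against filtered air was compared separately in sham and in TAC hearts. These comparisons share hearts with those of TAC above, and each value stands on its own. In sham hearts edgeR called 0 of 77 members and 0% of all genes, and at an unadjusted p under 0.05 there were 0 members, against 3.69% of all genes. The median over the members was -0.05, with 48 of 77 below 0, and it was 0.02 without filtered air sham replicate 3. Among the 76 members with a mean of at least 5 CPM, the lowest log2 fold changes were those of Mrpl42 at -0.45 ± 0.31 SE, Mrpl23 at -0.38 ± 0.29 and Mrps6 at -0.35 ± 0.31, and the highest those of Mrps11 at 0.45 ± 0.28, Mrpl44 at 0.30 ± 0.19 and Mrpl21 at 0.27 ± 0.32. Mrpl42 was at 133.3, 98.4 and 124.4 CPM after filtered air and 120.8, 44.1 and 94.8 CPM after diesel exhaust. Replicate 2 of the latter, the library lowest in mitochondrial RNA and in depth, was the lowest of these, and the same library was the highest for Mrps11, at 22.7 CPM against 9.95 to 14.4 CPM in the other 5 sham hearts.

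In TAC hearts edgeR again called 0 members and 0% of all genes, and at an unadjusted p under 0.05 there were 2 members lower and 0 higher, against 1.87% of all genes. They were Mrpl47, the relative of a bacterial protein at the exit tunnel, and Mrps14, a small subunit protein whose human gene is linked to cardiomyopathy. Mrpl47 was at 14.4, 13.9 and 14.3 CPM after filtered air and 11.5, 10.7 and 7.36 CPM after diesel exhaust, without overlap (log2 fold change -0.52 ± 0.24 SE, adjusted p = 1 by edgeR). Mrps14 was at 26.4, 34.8 and 35.1 CPM and at 24.95, 24.0 and 22.3 CPM, also without overlap (-0.44 ± 0.21 SE, adjusted p = 1 by edgeR). In this comparison 8 of 77 members were lower without overlap and the other 69 overlapped. The share of all genes without overlap was not counted here. Exons of Mrpl47 overlap those of Actl6a and Ndufb5. The highest log2 fold changes were those of Mrps22 at 0.43 ± 0.28, Mrpl40 at 0.35 ± 0.23 and Mrps15 at 0.34 ± 0.24 SE. The median over the members was -0.11, with 52 of 77 below 0, and it was -0.03 without diesel exhaust TAC replicate 3, the library with the lowest sum of members.

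**Figure D4:**
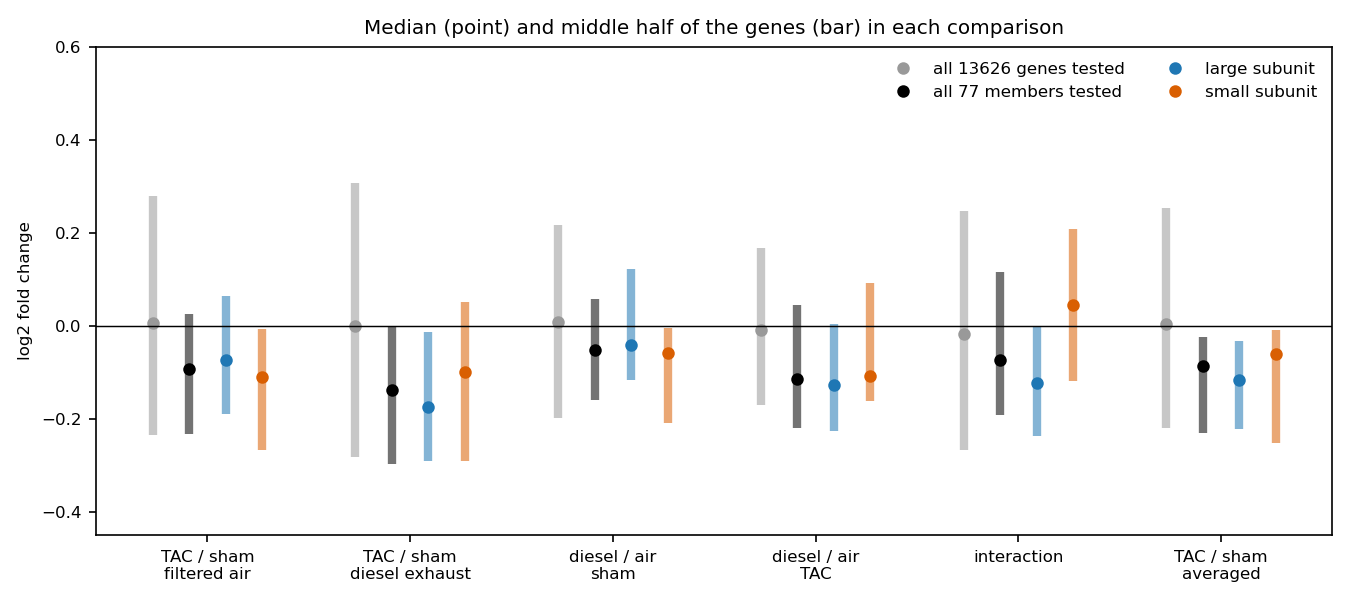
Median log2 fold change (point) and range from the first to the third quartile (bar) in each of the 6 comparisons, for all 13626 genes tested, the 77 members and the members of each subunit. The members' medians lie between -0.14 and -0.05, those of all genes between -0.02 and 0.01.

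Several members are known from human disease or from a special place in the ribosome, and in the fits without the term for the 4 libraries none of the 13 examined here passed the threshold in any of the 6 comparisons. Mrpl45 passed with that term, as given above. Human MRPL3, MRPL44, MRPS14 and MRPS22 are linked to inherited disease that can affect heart muscle, and MRPS16 to a severe mitochondrial disease of the newborn. Over both exposures the log2 fold changes of TAC by edgeR were -0.04 ± 0.12 SE for Mrpl3, -0.11 ± 0.13 for Mrpl44, -0.02 ± 0.15 for Mrps14, -0.09 ± 0.18 for Mrps16 and -0.00 ± 0.20 for Mrps22. Mrpl3 near the catalytic centre of the large subunit was among the steadiest, at 38.2 to 51.4 CPM in all 12 hearts. Its 95% interval, -0.28 to 0.21, leaves out a fall as large as that fitted for Mrps28.

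Mrpl12, a protein of the stalk that recruits translation factors, had a log2 fold change of -0.14 ± 0.13 SE. After diesel exhaust it was at 41.4, 47.0 and 41.7 CPM with sham and 36.3, 36.9 and 33.8 CPM with TAC, without overlap, and in filtered air at 35.5, 33.2 and 47.9 CPM with sham and 36.9, 43.7 and 36.3 CPM with TAC, with overlap. Mrps12 of the decoding centre was at 0.02 ± 0.15 SE. Mrps30, named for the small subunit but part of the large one, was at -0.15 ± 0.14 SE.

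Mammals have 3 relatives of the bacterial protein S18, of which Mrps18a sits in the large subunit and Mrps18b and Mrps18c in the small one. Per kilobase their mean levels were 41.4, 8.66 and 20.7 CPM per kb. Their log2 fold changes of TAC were 0.06 ± 0.13, 0.14 ± 0.22 and 0.11 ± 0.25 SE. Mrps18c was higher and Mrps18b lower in the library that stood apart than in the other 2 of each group. Mrps36, the member outside the ribosome, was at 33.0, 27.9 and 36.2 CPM in filtered air with sham and 18.5, 29.5 and 22.3 CPM with TAC, and at 24.1, 17.6 and 34.6 CPM in diesel exhaust with sham and 18.6, 23.0 and 18.3 CPM with TAC. Its groups overlapped, and by edgeR its log2 fold change of -0.41 ± 0.17 SE had an adjusted p = 0.15.

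Lists of genes that work with the mitochondrial ribosome were set beside the members for TAC over both exposures. In that comparison 3.91% of all genes tested fell and 4.1% rose. A single call in a list of 13 to 20 genes is close to that background. The 5 subunits with other names (Dap3, Ptcd3, Gadd45gip1, Aurkaip1 and Chchd1) were all below 0, with 0 past the threshold and a median log2 fold change of -0.17, lowest for Dap3 at -0.38 ± 0.12 SE (adjusted p = 0.0611 by edgeR). Of 28 assembly factors 0 passed, with a median of -0.17, and of 16 translation factors 0 passed, also with a median of -0.17. All 20 mitochondrial aminoacyl-tRNA synthetases were below 0, with a median of -0.25, and 1 fell, Cars2, which charges the transfer RNA for cysteine (-0.59 ± 0.15 SE, adjusted p = 0.0183 by edgeR). Of 17 genes of mitochondrial transcription and RNA processing 1 fell, Hsd17b10, a subunit of mitochondrial RNase P (-0.47 ± 0.11 SE, adjusted p = 0.0115 by edgeR). Among 13 regulators of mitochondrial gene expression 1 fell, the fatty acid receptor Ppara (-0.53 ± 0.14 SE, adjusted p = 0.022 by edgeR), and Nrf1, Gabpa and Ppargc1a were at 0.04 ± 0.23, -0.12 ± 0.14 and -0.55 ± 0.35 SE.

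The messages that this ribosome translates, and those of the nuclear-encoded respiratory chain subunits, had lower medians than the members. Of 84 nuclear-encoded respiratory chain subunits 15 fell after TAC and 0 rose, where 3.91% of all genes tested fell and 4.1% rose. Their median was -0.25, with 79 below 0. Their sums ran from 25640 to 28920 CPM in the 6 sham hearts and from 17680 to 24150 CPM in the 6 TAC hearts, without overlap. The 3 with the smallest p were Cox7a1 of complex IV (-0.86 ± 0.18 SE, adjusted p = 0.00674 by edgeR), Atp5d of the ATP synthase (-0.49 ± 0.12 SE, adjusted p = 0.0123) and Sdhc of complex II (-0.66 ± 0.17 SE, adjusted p = 0.0173). The 13 mitochondrially encoded messages were all below 0, with 0 past the threshold and a median of -0.32. Of 89 cytosolic ribosomal proteins 2 fell and 1 rose, smaller shares than those of all genes, with a median of 0.13. The 2 that fell were Rpl3l, a form of muscle (-0.87 ± 0.18 SE, adjusted p = 0.00628 by edgeR), and Rps2 (-0.60 ± 0.17 SE, adjusted p = 0.0362), and Rps27l rose (0.88 ± 0.21 SE, adjusted p = 0.00976). The ribosomal RNAs mt-Rnr1 and mt-Rnr2 were at -0.06 ± 0.18 and -0.04 ± 0.18 SE. Ribosomal RNA had been depleted before sequencing, and the part of depletion in these 2 values was not tested. These medians are descriptions, and no difference between the lists was tested.

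**Figure D5:**
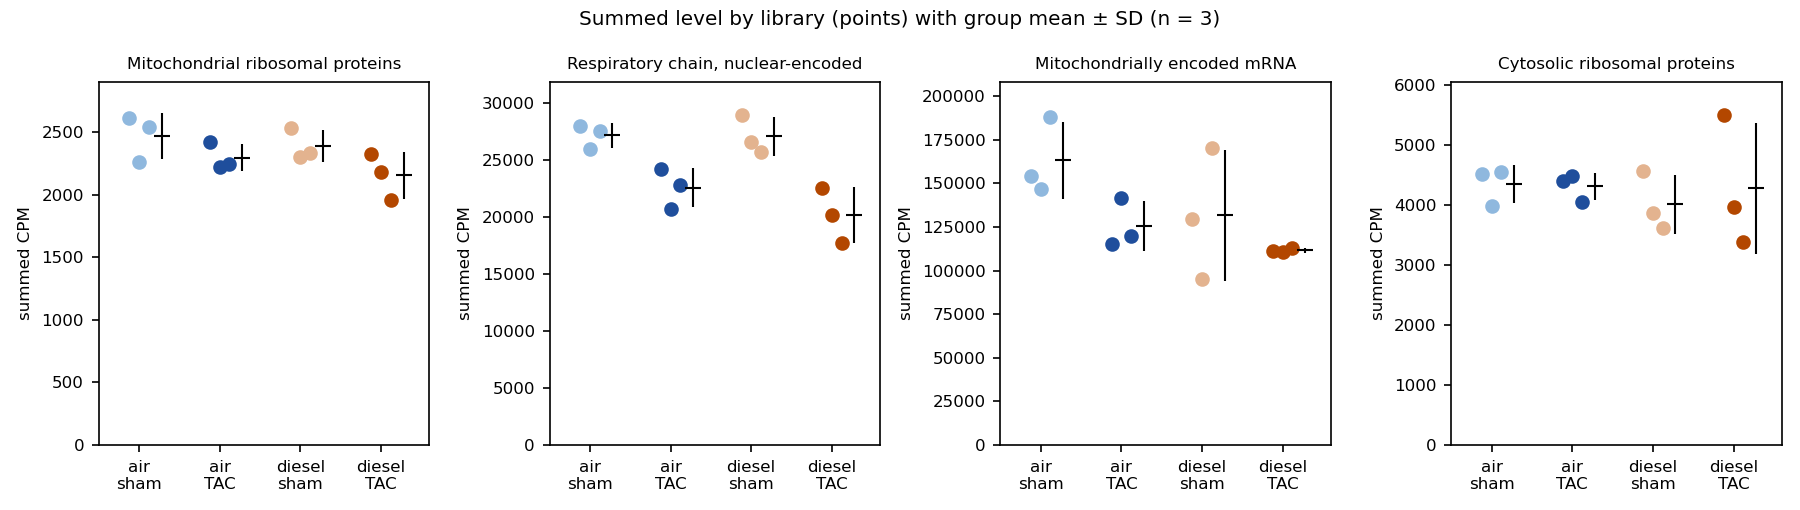
Summed level in CPM by library, with the group mean ± SD (n = 3), of the members, the nuclear-encoded respiratory chain subunits, the mitochondrially encoded messages and the cytosolic ribosomal proteins. The respiratory chain sums of all TAC hearts lie below those of all sham hearts, while the sums of the members overlap between groups.

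Markers of heart cell types moved with TAC in the same hearts. Among all genes tested 3.91% fell and 4.1% rose. Of 10 cardiomyocyte markers 4 fell, with a median log2 fold change of -0.33, and their summed level was 107600 to 145000 CPM in sham and 79280 to 129200 CPM in TAC hearts. Of 8 fibroblast markers 6 rose, with a median of 1.45, and their sum was 727.9 to 926.0 CPM in sham and 1413 to 2971 CPM in TAC hearts, without overlap. Of 8 macrophage markers 3 rose, with a median of 0.60, and their sum was 125.2 to 191.5 CPM in sham and 171.3 to 230.6 CPM in TAC hearts. Of 4 atrial markers tested 1 rose, the natriuretic peptide Nppa, of 6 smooth muscle and pericyte markers 1 fell, Acta2, and 1 rose, Pdgfrb, and of 8 endothelial and 4 erythrocyte markers 0 passed. The part of these markers in the lower values of Mrps28, Mrpl28 and Mrpl37 was not tested, and in bulk tissue fewer cells of a type and less RNA per cell cannot be told apart.

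Promoter sequences of the members were examined because their genes share known regulators, NRF1 and GABP (which binds ETS sites) among them. RefSeq's windows on GRCm38.p6, from 250 bases before to 50 after a start taken for the gene, were found for 69 of the 78 members and for 27025 genes in all. For some members, Mrpl22 among them, the start taken lies inside the annotated gene. Each motif was searched on both strands. The NRF1 core GCGCATGC was in 8 of 69 members (11.6%), in 2.8% of all promoters and in 5.3% of those of genes tested here. The ETS core CCGGAAG was in 24 (34.8%), against 9.1% and 17.8%, and in 16 (23.2%) when only the bases before the start were searched, against 7.1% and 13.5% searched likewise. The YY1 core AAGATGGC was in 12 (17.4%), against 2.9% and 4.6%, and in 4 (5.8%) before the start, against 1.6% and 2.0% there. The E-box CACGTG was in 5 (7.2%), against 7.2% and 10.3%. A match is a description of the letters in this window, not of binding.

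The stretches before the start of 5 members are printed to show what these matches look like in members described above. Mrps28 is not among the 69. Mrpl28 and Mrpl37 were called lower after TAC, Mrpl58 and Mrps22 had the lowest and the highest interaction, and Mrpl22, a relative of a bacterial exit tunnel protein, holds both the NRF1 core and the ETS core. The Mrpl22 stretch lies inside its annotated gene, which begins at chr11:58170043. That of Mrpl58 runs past the beginning of its annotated gene at chr11:115403724. The sequences are RefSeq's, on GRCm38.p6, 5′ to 3′ on the gene's strand and without annotated exons, with capitals for the NRF1 and ETS cores. They are chr17:26123255-26123499 (plus strand) for Mrpl28, chr4:107066869-107066987 (minus) for Mrpl37, chr11:115403502-115403751 (plus) for Mrpl58, chr9:98601680-98601929 (minus) for Mrps22 and chr11:58171414-58171660 (plus) for Mrpl22.
Mrpl28: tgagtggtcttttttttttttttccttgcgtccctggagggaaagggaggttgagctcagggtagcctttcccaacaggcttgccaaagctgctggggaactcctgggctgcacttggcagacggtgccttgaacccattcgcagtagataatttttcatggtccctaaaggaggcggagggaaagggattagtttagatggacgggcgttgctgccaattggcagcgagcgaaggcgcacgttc
Mrpl37: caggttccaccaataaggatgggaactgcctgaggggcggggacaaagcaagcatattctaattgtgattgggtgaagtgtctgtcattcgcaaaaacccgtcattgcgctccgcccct
Mrpl58: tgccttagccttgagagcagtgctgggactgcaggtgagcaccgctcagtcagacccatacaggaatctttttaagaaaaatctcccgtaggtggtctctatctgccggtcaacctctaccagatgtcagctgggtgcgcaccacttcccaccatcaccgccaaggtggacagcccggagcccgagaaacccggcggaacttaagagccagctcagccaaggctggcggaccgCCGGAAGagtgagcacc
Mrps22: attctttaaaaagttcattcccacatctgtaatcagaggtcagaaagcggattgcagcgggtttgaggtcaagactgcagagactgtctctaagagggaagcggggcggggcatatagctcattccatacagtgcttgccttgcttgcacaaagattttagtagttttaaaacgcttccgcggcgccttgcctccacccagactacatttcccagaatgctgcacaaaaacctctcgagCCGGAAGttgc
Mrpl22: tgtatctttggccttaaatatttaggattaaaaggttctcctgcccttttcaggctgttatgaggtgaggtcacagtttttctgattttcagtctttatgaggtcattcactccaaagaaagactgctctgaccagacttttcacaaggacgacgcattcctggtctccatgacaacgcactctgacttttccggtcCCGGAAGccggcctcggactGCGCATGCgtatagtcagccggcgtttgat

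The stretches of Mrpl28 and Mrpl37 hold none of the 4 motifs. The whole window of Mrpl37 holds the YY1 core and the E-box outside the printed stretch, and that of Mrpl28 holds none. Mrpl58 and Mrps22 both hold the ETS core in the printed stretch, and they had interactions of opposite sign, neither past the threshold. Mrpl22 had a log2 fold change of TAC over both exposures of -0.36 ± 0.21 SE by edgeR.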

How the data were processed

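RNA of 12 mouse hearts was sequenced on an Ion PI chip from total RNA depleted of ribosomal RNA, per the labels' protocols. The deposited values are raw read counts per gene under Entrez numbers, made by the authors with cutadapt 1.6 and featureCounts of Subread 1.4.2 on mm10, per the submitters' processing notes. For the aligner, the strand setting and reads with several matches, nothing is stated (not given in the sources used here). Symbols came from RefSeq for 25275 of 27179 genes and from GENCODE for 18, and 1886 had none.

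Groups were taken from the sample labels. Genes were filtered with filterByExpr (minimum count 10), which left 13626, scaled by TMM and fitted with 1 mean per group in edgeR 4.0.16 (R 4.3.3) by the robust quasi-likelihood test, which was tested on simulated data. All p-values were adjusted by Benjamini-Hochberg over these genes, with a threshold of 0.05. Alternatives were RLE scaling, mitochondrially encoded genes left out, no filter, the compared groups only, members with overlapping exons left out, DESeq2 1.42.0, limma 3.58.1 with voom, and each library left out in turn. The fits on the libraries that stood apart were added after the data were seen. No pair of libraries was a duplicate: at most 2.87% of genes tested had identical counts.

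Members, gene lists and markers were chosen with earlier results of these data known. Named members are those past the threshold, the 3 highest and 3 lowest log2 fold changes (mean of at least 5 CPM), the 5 highest and 3 lowest per kb, and a fixed set known from disease or place in the ribosome. Any other member named was chosen after its values were seen.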

Additional observations from a re-analysis of the deposited data

How the results depend on the processing

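Over 21 settings, Mrps28 and Mrpl28 were called lower after TAC over both exposures in 21 and Mrpl37 in 13. The count of members past the threshold in that comparison was 3, ranged from 2 to 4 with 1 library left out, and was 7 with a term for the 4 libraries that stood apart, where the share of all genes called lower also went from 3.91% to 5.74%. After diesel exhaust it was 0 in the main analysis, 1 by DESeq2, 3 with that term and 1 in the 8 other libraries, while the share of all genes called was 3.24%, 4.98%, 5.72% and 2.68%, and the cause was not tested. In the other 4 comparisons it was 0 under every setting run. Mrpl37 was lost without the filter (adjusted p = 0.0603 by edgeR), in the 8 other libraries (0.147) and without any of 6 libraries. The members' median for diesel exhaust against filtered air after TAC was -0.11 and ranged from -0.17 to -0.03 with 1 library left out, the value without diesel exhaust TAC replicate 3 being -0.033. The median for TAC in filtered air ranged from -0.14 to -0.05 with 1 library left out. The median for TAC over both exposures ranged from -0.15 to -0.08 with 1 library left out and from -0.11 to -0.07 under the other settings. No paired analysis was possible because the labels give no replicate numbers, and those used here follow the order of deposit. The term for the 4 libraries, read from the data, is not such a pairing. With 3 hearts a group the median SE of a member's log2 fold change was 0.22 within an exposure and 0.15 over both, which limits what differences could be seen.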
